A study of Capra hircus with 6 samples.

Results

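The genes described here encode the machinery that copies DNA and the regulators that commit a cell to S phase, and their transcripts were measured in mesenchymal stem cells of goat (Capra hircus) adipose tissue, which are precursors of the connective lineages, fat among them. The members are a list of 49 gene symbols, and all 49 were found by identifier among the 16285 genes of the deposited tables. RNA sequencing covered 6 libraries in 2 groups of 3. The libraries labelled YAP carry the genotype of YAP overexpression, and the control libraries are labelled wild type. Adipogenic differentiation is given as the treatment of both groups, with no time point. The design text of the series names a TAZ line where the sample titles name YAP, and the labels do not say whether the controls carried an empty vector. Whether the replicates are separate cultures or goats is not stated either, and p-values therefore measure only the spread between these libraries, which may be technical.

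Before S phase, the origin recognition complex, CDC6 and CDT1 load the MCM2 to MCM7 ring onto DNA. The kinases CDC7-DBF4 and cyclin E-CDK2 then help to recruit CDC45 and GINS and so start the helicase. Polymerases, a sliding clamp and its loader follow the fork, and enzymes of deoxynucleotide synthesis feed it. Many of these genes are transcribed late in G1 under E2F factors, which RB family proteins hold in check, so their RNA is abundant in proliferating cells and low in resting ones. In bulk RNA, fewer cells in S phase and less RNA per cell cannot be told apart.

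The 6 libraries held 32593380 to 37131015 counted fragments, and each member rested on 43 to 12912 reads per library, as worked back from the FPKM values. Read numbers given here and below are the smallest that match these values. YAP1 (YAP) stood at 28.4, 25.6 and 28.2 FPKM in the libraries labelled YAP, against 25.8, 27.0 and 28.9 FPKM in control libraries (log2 change 0.01, SE 0.08, limma adjusted p = 0.95; exact two-sided permutation p = 1, where 3 against 3 libraries allow no p below 0.1). The groups overlapped, so the labelled overexpression was not visible in this transcript, and directions below are those of the labelled group. WWTR1 (TAZ) had 21.4 ± 1.98 FPKM in the libraries labelled YAP and 32.0 ± 3.38 FPKM in control libraries (SD, n = 3 each; limma adjusted p = 0.0013). All 13 listed stromal markers passed the filter on low values, among which 7 rose and 3 fell, and their sum in the libraries labelled YAP was 31061 to 31250 FPKM, against 25064 to 26454 FPKM in controls. The collagen gene COL1A1 averaged 5890 ± 166 FPKM in the libraries labelled YAP and 3674 ± 73.9 FPKM in controls, and ENG (CD105) 80.8 ± 4.98 and 150 ± 14.8 FPKM. The adipocyte genes PPARG, ADIPOQ and LPL had at most 4, 17 and 4 reads in any library. Sums over the marker lists of other cell types were lower in the libraries labelled YAP. They ran from 13.2 to 16.3 FPKM there against 20.6 to 25.9 FPKM in controls for 8 adipocyte markers, from 11.8 to 13.9 against 14.7 to 15.3 FPKM for 10 leukocyte markers, and from 6.57 to 7.3 against 10.1 to 11.2 FPKM for 6 endothelial markers. Each sum rested mostly on 1 or 2 genes, and other listed genes lay the other way. CIDEC had 9.56 ± 0.854 FPKM in the libraries labelled YAP and 18.3 ± 1.31 FPKM in controls, but CIDEA 3.37 ± 0.468 and 2.72 ± 0.465 FPKM. CD68 had 2.03 ± 0.278 and 4.53 ± 0.437 FPKM, but LAPTM5 10.2 ± 0.82 and 9.47 ± 0.228 FPKM, and ERG had 6.8 ± 0.391 and 10.1 ± 0.525 FPKM, but VWF 0.103 ± 0.00755 and 0.0321 ± 0.00871 FPKM. The leukocyte genes PTPRC, CD74 and AIF1 and endothelial genes CDH5 and KDR had at most 1 read in any library. PECAM1 (0.0446 ± 0.0419 FPKM in the libraries labelled YAP, 0.369 ± 0.0842 FPKM in controls), CD3E (0.179 ± 0.0343 and 0.598 ± 0.0733 FPKM) and CD79A (0.0479 ± 0.0652 and 0.215 ± 0.0927 FPKM) lay lower without overlap. They had at most 51, 32 and 14 reads in any library. Means of TYROBP, CSF1R and TEK were higher in the libraries labelled YAP, with overlap. The part of the marker genes in the results was not tested.

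Levels are given in FPKM, fragments per kilobase of gene and per unit of library depth, so levels of different genes can be compared per length. Changes are log2 changes of FPKM + 1 from a limma fit over the 10761 genes that reached 1 FPKM in 3 or more libraries, with p adjusted over all of them (Benjamini-Hochberg) and 0.05 as the threshold. This scale understates changes of genes with low values. All 49 members passed the filter, E2F2 through the libraries labelled YAP alone.

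Most replication genes lay lower in the libraries labelled YAP, and by modest amounts. Of the 49 members, 20 fell, 1 rose and 28 did not pass the threshold; the rise is that of E2F2, which entered the test only through its own higher group. The share that fell, 40.8%, stood beside 23.0% of all tested genes called lower, and the single rise, 2.04% of members, beside 12.9% of all tested genes called higher. The median log2 change was -0.21 over the members and -0.10 over all tested genes, and 42 members (85.7%) had an estimate below 0, beside 63.7% of all tested genes. By role, the share that fell was lowest among polymerase genes, at 12.5%, and activation genes, at 25%, and it was 36.4% among loading genes and 44.4% among clamp and single-strand binding genes. Summed over the members, the level was 956, 979 and 959 FPKM in the libraries labelled YAP, against 1297, 1127 and 1138 FPKM in control libraries, so the groups did not overlap. The highest sum belonged to control replicate 1.

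The number of calls moved with the scaling of the libraries, for the members as for all genes. After median-of-ratios scaling, which divides each library by its median ratio to the geometric mean over genes, 15 members (30.6%) fell and 1 rose, beside 14.0% and 15.8% of all tested genes called lower and higher. The members' median was then -0.14, against -0.02 over all tested genes, and 79.6% of members against 53.3% of all tested genes had an estimate below 0. All 15 were among the 20 called in the deposited values, and the calls lost were those of MCM5, RFC4, RPA1, FEN1 and LIG1. By role, the scaled share that fell was 12.5% of polymerase genes, 22.2% of clamp and single-strand binding genes, 25% of activation genes and 27.3% of loading genes. In the deposited FPKM, 22 members (44.9%) had every library labelled YAP below every control library, beside 31.6% of all tested genes. After scaling the count was 18 (36.7%), beside 21.7%. Without replicate 1 of the libraries labelled YAP the number of members that fell was 13, beside 1387 of the 10761 tested genes. Without control replicate 1 it was 15, beside 1989 of all tested genes.

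**Figure D1:**
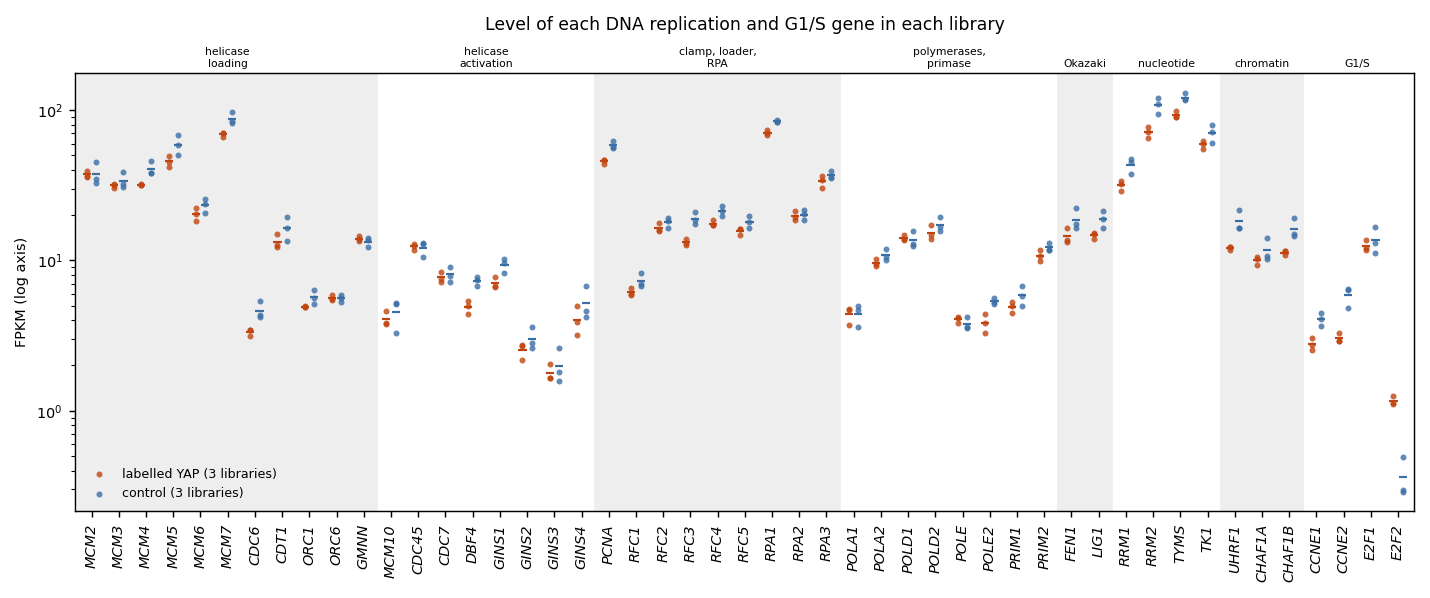
FPKM of each of the 49 genes (log axis) in the 3 libraries labelled YAP (left of each pair) and the 3 control libraries (right), with short lines at the group means and shading by role. Levels ran from TYMS, with 93.0 FPKM in the libraries labelled YAP and 121 FPKM in controls, down to E2F2, with 1.17 and 0.36 FPKM.

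The plot of levels by library shows how far apart the members stand. TYMS (thymidylate synthase), RRM2 (the small, cell-cycle-regulated subunit of ribonucleotide reductase), the helicase subunit gene MCM7, RPA1 (the large subunit of the single-strand binding protein RPA) and TK1 (thymidine kinase) were the 5 highest in both groups. Within these 5, RRM2, RPA1 and MCM7 differed by less than the SD of RRM2 in the libraries labelled YAP, at 71.3 ± 5.9, 70.9 ± 2.89 and 69.0 ± 2.14 FPKM (n = 3). In control libraries RRM2 stood at 108 ± 13.1 FPKM and MCM7 at 87.8 ± 7.73 FPKM, with RPA1 at 84.3 ± 0.954 FPKM. The lowest members in both groups were GINS2 and GINS3, subunits of the GINS complex, and E2F2.

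Helicase loading genes split within the ring itself. Of 11 loading genes, 4 fell, namely MCM4, MCM5, MCM7 and CDC6, and 7 did not pass. The share that fell was 36.4%, beside 23.0% of all tested genes, and 27.3%, beside 14.0%, after median-of-ratios scaling. MCM7 had 70.1, 70.3 and 66.5 FPKM in the libraries labelled YAP, against 96.7, 84.4 and 82.4 FPKM in control libraries (log2 change -0.34, SE 0.08, limma adjusted p = 0.0077). MCM4 had 31.9, 32.1 and 31.8 FPKM in the libraries labelled YAP, against 46.0, 38.3 and 37.9 FPKM in control libraries (log2 change -0.34, SE 0.09, limma adjusted p = 0.012). For both genes every library labelled YAP lay below every control, and MCM4 was almost level across the libraries labelled YAP. MCM5 also did not overlap, with 45.4, 49.4 and 41.9 FPKM in the libraries labelled YAP against 68.1, 58.2 and 50.2 FPKM in controls (limma adjusted p = 0.026, and 0.092 once scaled). MCM2 had 36.7, 39.5 and 36.1 FPKM in the libraries labelled YAP, against 45.1, 35.1 and 32.7 FPKM in control libraries. Its log2 change was 0.00 with a 95% confidence interval of -0.24 to 0.25 (limma adjusted p = 0.98), and only control replicate 1 lay clearly above the rest. MCM3 (31.5 ± 1.13 FPKM in the libraries labelled YAP, 34.0 ± 4.16 FPKM in controls) and MCM6 (20.3 ± 1.92 and 23.3 ± 2.55 FPKM) overlapped between groups and did not pass.

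The make-up of the ring transcripts, which no scaling between libraries can alter, was compared as each subunit's share of the MCM2 to MCM7 sum. MCM2 made up 15.9% ± 0.371 of the sum in the libraries labelled YAP and 13.3% ± 0.84 in control libraries (SD, n = 3 each; exact two-sided permutation p = 0.1). MCM7 made up 29.3% ± 0.532 in the libraries labelled YAP and 31.2% ± 0.688 in controls (exact permutation p = 0.1). Shares of MCM2 and MCM3 were higher, and those of MCM4 and MCM7 lower, in every library labelled YAP than in any control. The shares of MCM5 and MCM6 overlapped. A p of 0.1 is the smallest this design gives, and the shares of 1 sum are not independent of each other.

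Around the ring, CDC6, the loading ATPase, had 3.45, 3.15 and 3.42 FPKM in the libraries labelled YAP, against 5.38, 4.2 and 4.34 FPKM in control libraries (log2 change -0.37, SE 0.10, limma adjusted p = 0.015). The groups did not overlap. Its partner CDT1 had 12.3, 15 and 12.7 FPKM in the libraries labelled YAP, against 19.5, 16.5 and 13.4 FPKM in control libraries, which overlapped (limma adjusted p = 0.10). GMNN, which encodes the CDT1 inhibitor geminin, was at 14.0 ± 0.515 FPKM in the libraries labelled YAP and 13.3 ± 0.955 FPKM in controls (limma adjusted p = 0.55). The origin recognition subunit genes ORC1 (4.91 ± 0.0444 and 5.69 ± 0.577 FPKM) and ORC6 (5.65 ± 0.243 and 5.60 ± 0.33 FPKM) did not pass, although ORC1 was lower in every library labelled YAP than in any control.

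Among 8 helicase activation genes, 2 fell and 6 did not pass, a share of 25% that lay near the 23.0% of all tested genes. After median-of-ratios scaling the share was still 25%, beside 14.0% of all tested genes. DBF4, the activating subunit of the CDC7 kinase, had 4.95, 4.42 and 5.38 FPKM in the libraries labelled YAP, against 7.42, 6.79 and 7.79 FPKM in control libraries (log2 change -0.49, SE 0.10, limma adjusted p = 0.0023). Every library labelled YAP was below every control. The kinase gene CDC7 itself overlapped, at 7.74 ± 0.611 FPKM in the libraries labelled YAP and 8.07 ± 0.942 FPKM in controls (log2 change -0.05, 95% confidence interval -0.27 to 0.17), with its sign turned to 0.03 after median-of-ratios scaling. GINS1 fell without overlap, with 6.69, 6.73 and 7.79 FPKM in the libraries labelled YAP against 9.69, 8.24 and 10.2 FPKM in controls (limma adjusted p = 0.017). Its partners GINS2, GINS3 and GINS4 had estimates of -0.18, -0.10 and -0.30 and did not pass. GINS4 was the most variable member among the libraries labelled YAP, at 3.91, 3.18 and 4.96 FPKM there and 6.81, 4.19 and 4.59 FPKM in controls. CDC45, which joins MCM and GINS in the active helicase, had 12.4 ± 0.571 FPKM in the libraries labelled YAP and 12.2 ± 1.46 FPKM in controls (limma adjusted p = 0.84). MCM10, which acts at helicase activation, had 4.10 ± 0.464 and 4.55 ± 1.07 FPKM (limma adjusted p = 0.58).

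Of the clamp, clamp loader and single-strand binding genes, 4 of 9 fell (44.4%), beside 23.0% of all tested genes. After median-of-ratios scaling 2 fell (22.2%), beside 14.0%. PCNA, the sliding clamp, had 43.7, 46.7 and 46.6 FPKM in the libraries labelled YAP, against 61.9, 56.0 and 56.9 FPKM in control libraries (log2 change -0.34, SE 0.08, limma adjusted p = 0.0049). RFC3, a clamp loader subunit, had 12.6, 13.1 and 13.8 FPKM in the libraries labelled YAP, against 20.9, 17.4 and 18.5 FPKM in control libraries (log2 change -0.49, SE 0.09, limma adjusted p = 0.0016). Both genes kept the call after scaling and had groups that did not overlap. The other loader genes had smaller estimates. RFC4 passed in the deposited values (17.6 ± 0.816 FPKM in the libraries labelled YAP, 21.4 ± 1.74 FPKM in controls; limma adjusted p = 0.029, and 0.11 after scaling), whereas RFC1, RFC2 and RFC5 had log2 changes of -0.22, -0.11 and -0.19 and did not pass. RPA1 had 73.8, 68.0 and 70.8 FPKM in the libraries labelled YAP, against 85.4, 83.9 and 83.6 FPKM in control libraries (limma adjusted p = 0.019, and 0.12 after scaling). RPA1 had the smallest relative spread of any member among the controls. RPA2 (19.8 ± 1.32 and 20.2 ± 1.63 FPKM) and RPA3 (33.7 ± 3.26 and 36.9 ± 2.36 FPKM), the smaller RPA subunits, did not pass, and the sign of RPA2 (-0.03) turned to 0.06 after median-of-ratios scaling.

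Polymerase and primase genes had the smallest share of calls in the deposited values, since 1 of these 8 genes, POLE2, fell. This 12.5% stood beside 23.0% of all tested genes. After median-of-ratios scaling the share was still 12.5%, near the 14.0% of all tested genes. POLE2, the accessory subunit of the leading strand polymerase epsilon, had 3.85, 3.29 and 4.41 FPKM in the libraries labelled YAP, against 5.26, 5.13 and 5.62 FPKM in control libraries (log2 change -0.39, SE 0.10, limma adjusted p = 0.012). The groups did not overlap. The catalytic subunit gene POLE had 4.16, 3.86 and 4.18 FPKM in the libraries labelled YAP, against 4.2, 3.62 and 3.57 FPKM in control libraries (log2 change 0.08, 95% confidence interval -0.12 to 0.28). The catalytic subunit of polymerase delta, POLD1, was at 0.04 (-0.17 to 0.26) and that of polymerase alpha, POLA1, at -0.01 (-0.27 to 0.25), with POLA1 turned to 0.06 after scaling. The intervals of these catalytic subunits reached no further down than -0.27. Accessory and primase genes POLA2, POLD2, PRIM1 and PRIM2 had estimates between -0.21 and -0.15, and none of them passed (limma adjusted p 0.22, 0.24, 0.16 and 0.18).

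Both genes of Okazaki fragment processing fell in the deposited values, where 23.0% of all tested genes were called lower. FEN1, the flap nuclease, had 13.6, 16.5 and 13.3 FPKM in the libraries labelled YAP, against 22.2, 17.5 and 16.4 FPKM in control libraries (log2 change -0.34, SE 0.12, limma adjusted p = 0.044). These groups overlapped by a narrow margin. LIG1, the ligase that seals the fragments, had 15.3, 15 and 13.8 FPKM in the libraries labelled YAP, against 21.4, 18.8 and 16.5 FPKM in control libraries (limma adjusted p = 0.022). Neither passed once scaled by median of ratios (limma adjusted p = 0.12 for FEN1 and 0.080 for LIG1), and both also lost the call without control replicate 1, without replicate 1 or 3 labelled YAP, with quantile normalization and with no filter.

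Deoxynucleotide synthesis held the largest differences of mean FPKM among the members, those of RRM2 and TYMS. Of its 4 genes, RRM1, RRM2 and TYMS fell and TK1 did not pass. RRM2 had 71.2, 65.4 and 77.2 FPKM in the libraries labelled YAP, against 119.6, 93.7 and 110.4 FPKM in control libraries (log2 change -0.59, SE 0.10, limma adjusted p = 0.0010). TYMS had 90.3, 98.3 and 90.5 FPKM in the libraries labelled YAP, against 129.8, 118.0 and 116.0 FPKM in control libraries (log2 change -0.38, SE 0.08, limma adjusted p = 0.0034). RRM1, the large subunit of ribonucleotide reductase, had 32.4, 29.1 and 33.6 FPKM in the libraries labelled YAP, against 47.0, 37.4 and 45.2 FPKM in control libraries (limma adjusted p = 0.0061). In all 3 genes every library labelled YAP lay below every control, and the calls held after scaling. TK1, the salvage kinase, had 59.4, 62.7 and 55.5 FPKM in the libraries labelled YAP, against 80.2, 71.9 and 60.6 FPKM in control libraries, and overlapped (limma adjusted p = 0.078). No source used here gives the strand setting of the read counting, so reads of genes that overlap on opposite strands, as TYMS and ENOSF1 do in human, cannot be told apart.

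Of the replication-coupled chromatin genes, 2 of 3 fell (66.7%), beside 23.0% of all tested genes. After median-of-ratios scaling the share was again 66.7%, beside 14.0%. UHRF1, which directs maintenance DNA methylation to new strands, had 11.8, 12.2 and 12.2 FPKM in the libraries labelled YAP, against 21.8, 16.5 and 16.4 FPKM in control libraries (log2 change -0.55, SE 0.11, limma adjusted p = 0.0025). CHAF1B, a subunit of the histone chaperone CAF-1, had 11.5, 10.8 and 11.5 FPKM in the libraries labelled YAP, against 19.1, 14.5 and 14.9 FPKM in control libraries (log2 change -0.48, SE 0.11, limma adjusted p = 0.0049). Neither overlapped, and both stood highest in control replicate 1. CHAF1A, the large CAF-1 subunit, had 10.1 ± 0.641 and 11.6 ± 2.13 FPKM and did not pass (limma adjusted p = 0.25).

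The G1/S regulators held both the largest fall and the one rise among the members. CCNE2, a cyclin E that activates CDK2, had 3.31, 2.92 and 2.89 FPKM in the libraries labelled YAP, against 6.39, 4.8 and 6.42 FPKM in control libraries (log2 change -0.76, SE 0.11, limma adjusted p = 3.7e-04). CCNE1, the other cyclin E, had 2.73, 2.55 and 3.03 FPKM in the libraries labelled YAP, against 4.44, 4.06 and 3.65 FPKM in control libraries (log2 change -0.42, SE 0.10, limma adjusted p = 0.0064). The groups did not overlap for either cyclin, and mean CCNE2 fell by 48.2%. E2F2, an activating E2F factor, had 1.11, 1.13 and 1.26 FPKM in the libraries labelled YAP, against 0.494, 0.297 and 0.29 FPKM in control libraries. Because it passed the filter through the libraries labelled YAP alone, its call in that fit is no support. Fitted over all genes with no filter its log2 change was 0.67 (limma adjusted p = 0.0012). As a ratio of mean FPKM this was 3.24-fold, on 43 to 201 reads per library, the fewest of any member. E2F1, its close relative, was at 11.7, 13.6 and 12.1 FPKM in the libraries labelled YAP, against 16.8, 13.1 and 11.2 FPKM in control libraries, and overlapped (log2 change -0.11, 95% confidence interval -0.39 to 0.17). E2F1 therefore remained the more abundant of the pair in every library. The calls of CCNE1 and CCNE2 held after scaling and without any single library.

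**Figure D2:**
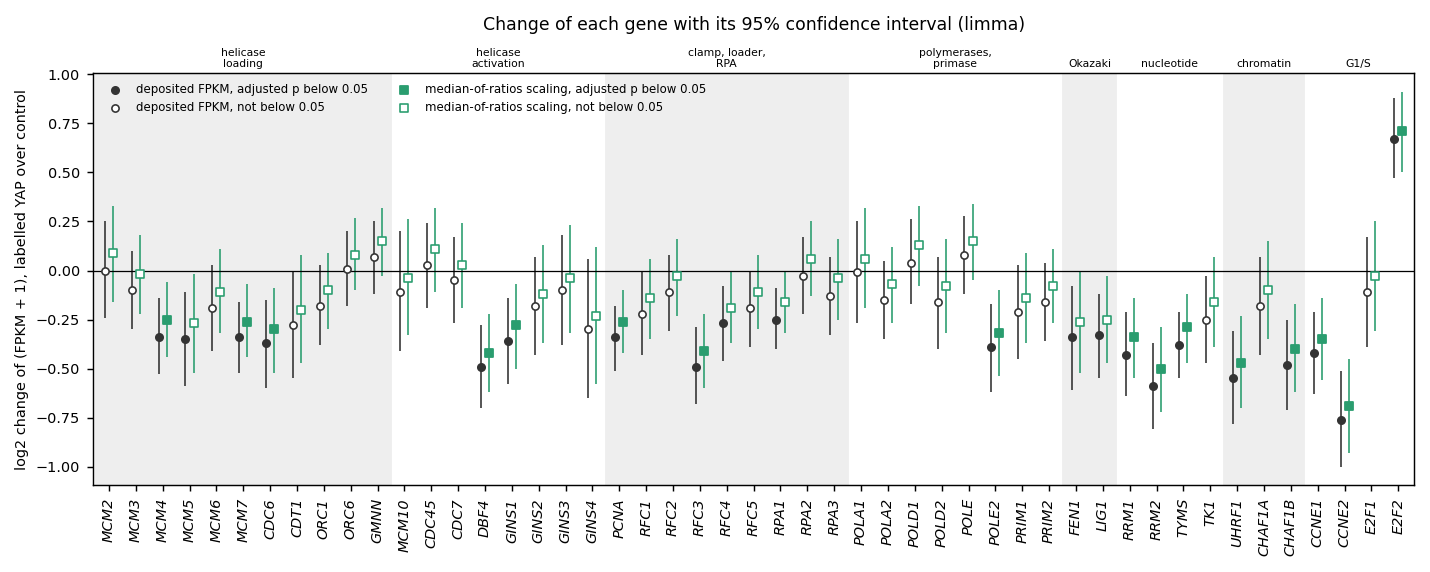
Log2 change of FPKM + 1 (libraries labelled YAP over control) for each of the 49 genes, with 95% confidence intervals from limma, in the deposited FPKM (circles) and after median-of-ratios scaling (squares); filled symbols mark an adjusted p below 0.05. The 20 genes called lower lie between -0.76 (CCNE2) and -0.25 (RPA1), scaling moves the estimates upwards, and E2F2 (0.67) stands alone above 0 with a filled symbol.

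Pairs of partner genes, or of close relatives such as E2F2 and E2F1, were compared within each library. Such a ratio is free of the scaling between libraries. The 11 pairs were chosen after the values of their genes had been seen. The ratio did not overlap between groups in 6 pairs, lower in the libraries labelled YAP in 4 and higher in 2. The share of other gene pairs without overlap was not computed, so whether this count is unusual was not tested. DBF4 relative to CDC7 was 0.684, 0.585 and 0.639 in the libraries labelled YAP, against 0.936, 0.942 and 0.858 in control libraries. POLE2 relative to POLE was 0.925, 0.852 and 1.05 in the libraries labelled YAP, against 1.25, 1.42 and 1.58 in control libraries. In these pairs the transcript of the regulatory or accessory subunit was scarcer relative to that of its catalytic partner in every library labelled YAP. CHAF1B relative to CHAF1A averaged 1.12 ± 0.106 in the libraries labelled YAP and 1.39 ± 0.0581 in controls, and RRM2 relative to RRM1 averaged 2.25 ± 0.05 and 2.5 ± 0.0526 (SD, n = 3 each). The higher ratios were E2F2 to E2F1, at 0.0939 ± 0.0105 in the libraries labelled YAP and 0.026 ± 0.00338 in controls, and ORC6 to ORC1, at 1.15 ± 0.0547 and 0.986 ± 0.0437. Each of these 6 gave an exact two-sided permutation p of 0.1, the smallest possible, which adjustment over the 11 pairs cannot lower. The other 5 pairs overlapped, among them CDT1 to its inhibitor GMNN, at 0.88, 1.11 and 0.876 in the libraries labelled YAP and 1.42, 1.35 and 0.958 in controls (exact permutation p = 0.2).

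**Figure D3:**
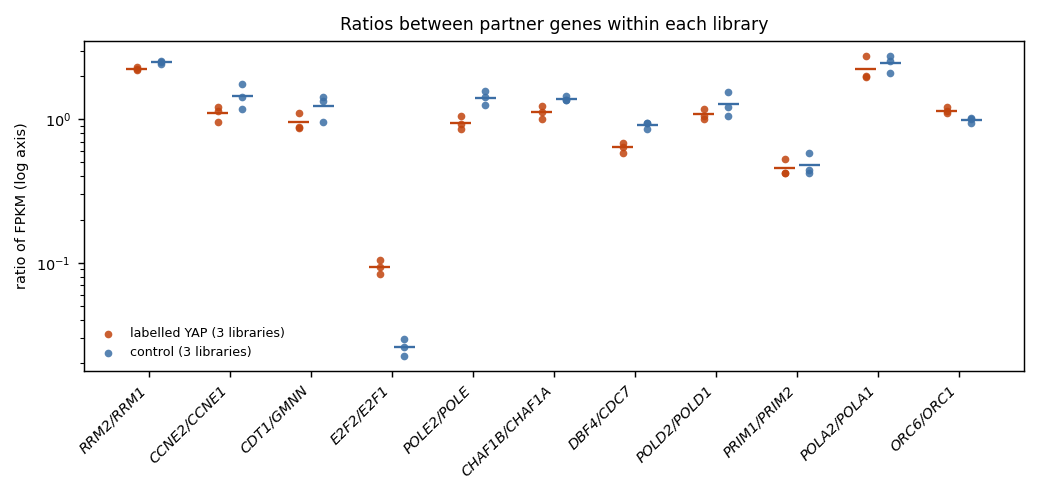
Ratio of FPKM between 11 pairs of partner or closely related genes (log axis) in each of the 3 libraries labelled YAP (left) and 3 control libraries (right), with short lines at the means. The DBF4/CDC7 and POLE2/POLE ratios lie lower, and the E2F2/E2F1 ratio higher, in every library labelled YAP.

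One control library stood above the others for many members. Control replicate 1 was the highest of the 3 controls for 34 of the 49 members (69.4%), beside 34.2% of all tested genes, and for 32 members after median-of-ratios scaling. It stood highest in members from every role, as the plot by library shows, with GINS4 at 6.81 FPKM against 4.19 and 4.59 FPKM and UHRF1 at 21.8 FPKM against 16.5 and 16.4 FPKM in the other controls. Among the libraries labelled YAP the highest value was spread more evenly, in replicates 1, 2 and 3 for 8, 22 and 19 members. The median coefficient of variation of the members was 6.67% in the libraries labelled YAP and 11.7% in control libraries, and over all tested genes it was 7.59% and 9.83%. Without control replicate 1 the members' median log2 change was -0.174, and 15 members fell, beside 1989 of the 10761 tested genes.

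**Figure D4:**
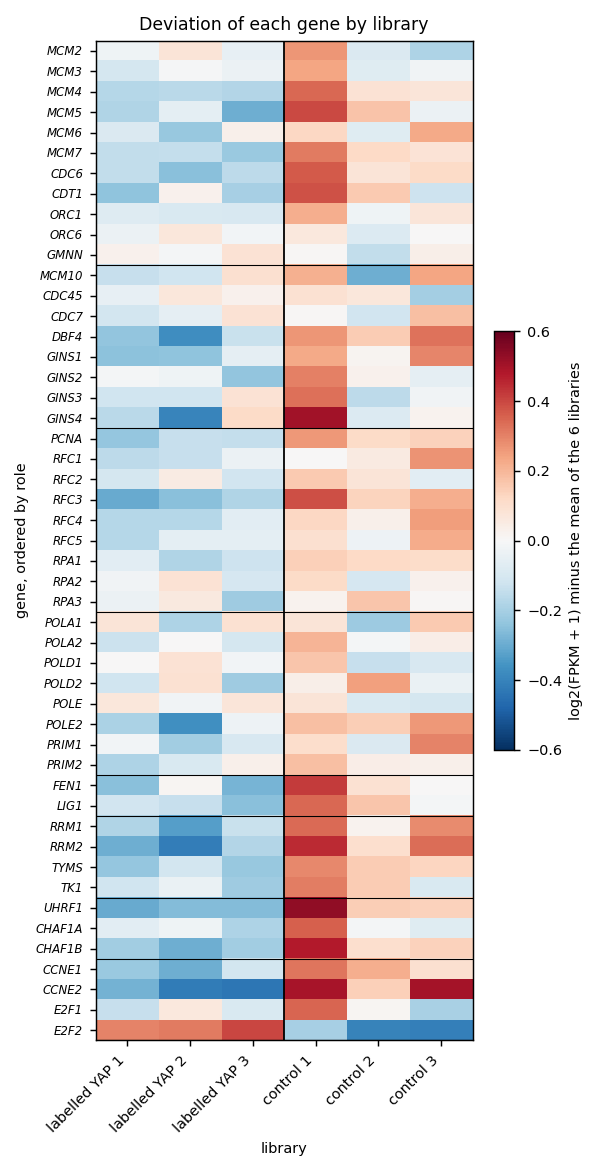
Deviation of log2(FPKM + 1) from the mean of the 6 libraries for each gene (rows, ordered by role) in the 3 libraries labelled YAP (left) and the 3 control libraries (right). Control replicate 1 is the highest control in 34 of the 49 rows, and E2F2 at the bottom is higher in every library labelled YAP than in any control.

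Other genes of the same processes were taken from lists of names. Of 33 other replication genes tested, 7 fell and 2 rose, with a median log2 change of -0.18, and after median-of-ratios scaling 4 fell and 2 rose. The shares that fell, 21.2% and 12.1% after scaling, were no higher than the 23.0% and 14.0% of all tested genes. The falls numbered 3 and 4 without replicates 1 and 2 labelled YAP and 11 without control replicate 2, and the rises numbered 1 without any of these 3 libraries or control replicate 3. All tested genes called lower numbered 1387, 2197 and 2169 without these 3 libraries in turn. The falls included WDHD1, which couples the helicase to polymerase alpha (5.98 ± 0.524 FPKM in the libraries labelled YAP, 8.94 ± 1.35 FPKM in controls), the PCNA-binding factor PCLAF (listed as KIAA0101; 15.8 ± 0.107 and 20.7 ± 1.37 FPKM) and the polymerase epsilon subunit POLE4 (37.9 ± 2.88 and 50.1 ± 4.34 FPKM). POLD4, the smallest subunit of polymerase delta, rose, with 22.6 ± 3.39 FPKM in the libraries labelled YAP and 15.1 ± 1.17 FPKM in controls (log2 change 0.54, SE 0.11, limma adjusted p = 0.0026). Of 20 other nucleotide and chromatin genes tested, 8 (40.0%) fell and 1 rose (median -0.24), and 7 (35.0%) and 1 after scaling. CDCA7, a factor of DNA methylation maintenance, had 6.5 ± 0.505 FPKM in the libraries labelled YAP and 15.3 ± 1.19 FPKM in controls (log2 change -1.12, SE 0.09, limma adjusted p = 4.2e-06). Falls in nucleotide synthesis included CTPS1, which makes CTP (15.4 ± 0.143 FPKM in the libraries labelled YAP, 24.1 ± 2.26 FPKM in controls), and PAICS of purine synthesis (15.1 ± 0.82 and 21.9 ± 1.25 FPKM).

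Among upstream regulators of G1, calls went both ways. Of 34 other G1/S genes tested, 10 fell and 3 rose (median -0.15), and after median-of-ratios scaling 7 fell and 5 rose. The shares that fell were 29.4% and 20.6%, beside 23.0% and 14.0% of all tested genes, and those that rose 8.82% and 14.7%, beside 12.9% and 15.8%. Without replicate 1 labelled YAP 5 fell, beside 1387 of the 10761 tested genes, and without control replicate 3 5 rose, beside 1333. CCND1, the D-type cyclin most tied to growth signals, had 32.3 ± 0.74 FPKM in the libraries labelled YAP and 83.4 ± 13.7 FPKM in controls (log2 change -1.33, SE 0.10, limma adjusted p = 2.9e-06). CCND3, another D-type cyclin, had 89.3 ± 0.0579 FPKM in the libraries labelled YAP and 49.4 ± 4.96 FPKM in controls (log2 change 0.85, SE 0.08, limma adjusted p = 1.9e-05). The most abundant D cyclin transcript was thus CCND3 in the libraries labelled YAP and CCND1 in control libraries. The CDK inhibitor genes CDKN2D (3.81 ± 0.475 and 2.10 ± 0.316 FPKM; limma adjusted p = 0.0011) and CDKN1C (2.88 ± 0.362 and 1.58 ± 0.328 FPKM; limma adjusted p = 0.0025) rose. Other CDK inhibitor genes are named here after their values were seen. CDKN2C fell, with 14.6 ± 0.56 FPKM in the libraries labelled YAP and 18.1 ± 1.68 FPKM in controls (limma adjusted p = 0.023), but did not pass after scaling, and CDKN2A had 13.3 ± 2.81 and 16.4 ± 1.82 FPKM (limma adjusted p = 0.11). CDKN1A (p21) stood at 99.3 ± 1.15 FPKM in the libraries labelled YAP and 99.5 ± 14.8 FPKM in controls (log2 change 0.01, 95% confidence interval -0.21 to 0.23). CDKN1B had 6.1 ± 0.218 FPKM in the libraries labelled YAP and 4.86 ± 0.765 FPKM in controls, without overlap. It did not pass in the deposited values (limma adjusted p = 0.057) but was called higher after scaling (limma adjusted p = 0.028). CDKN2B had 3.23 ± 0.165 and 2.95 ± 0.518 FPKM, with overlap (limma adjusted p = 0.47).

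Genes of mitosis lay lower as well. Of 20 tested, 11 (55.0%) fell in the limma fit, beside 23.0% of all tested genes. All 20 had an estimate below 0, beside 63.7% of all tested genes, and the median log2 change was -0.28, against -0.10. Upward calls were 0, also at an unadjusted p of 0.05 and with limma-voom on recovered reads. After median-of-ratios scaling 6 (30%) fell, beside 14.0% of all tested genes, and the median was -0.20, against -0.02. Without replicate 1 labelled YAP 5 fell, beside 1387 of the 10761 tested genes. The spindle and checkpoint genes BIRC5 (25.4 ± 0.854 FPKM in the libraries labelled YAP, 35.5 ± 4.85 FPKM in controls), BUB1B (13.7 ± 1.54 and 19.3 ± 2.26 FPKM), PRC1 (25.1 ± 1.92 and 33.1 ± 2.61 FPKM) and CENPE (2.40 ± 0.265 and 3.81 ± 0.679 FPKM) had the smallest adjusted p. The difference between this list and the replication genes was not tested.

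**Figure D5:**
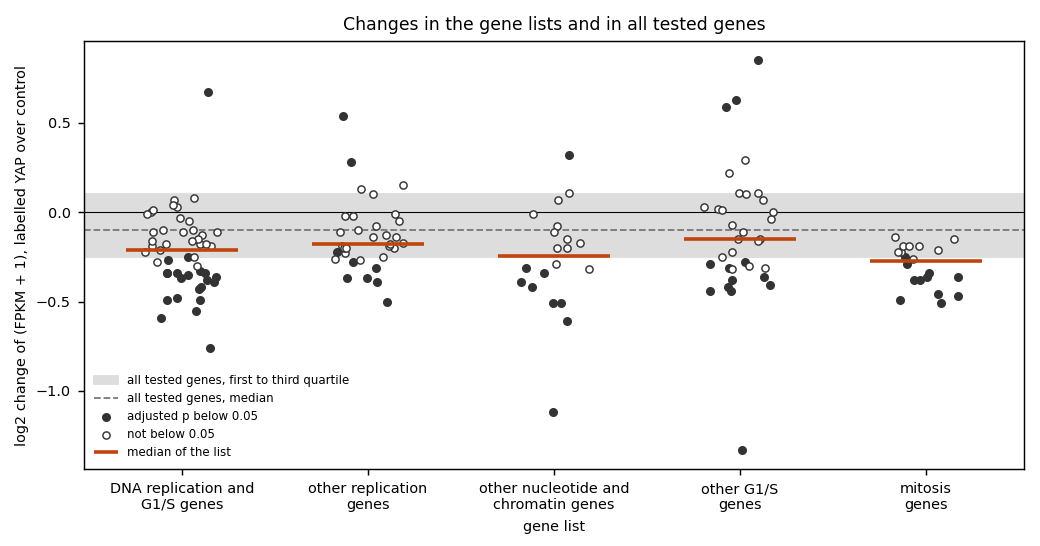
Log2 change of FPKM + 1 (libraries labelled YAP over control) for each tested gene of the 49 DNA replication and G1/S genes and of 4 other lists; filled points have an adjusted p below 0.05, and orange lines are list medians. The grey band and dashed line give the quartiles (-0.25 and 0.10) and the median (-0.10) of all tested genes; all 5 list medians lie below that median, and CCND1 is the lowest point.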

How the data were processed

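RNA was sequenced in 6 libraries, 3 labelled YAP and 3 control, grouped by sample title. FPKM values, normalised library by library, come in 2 tables deposited by the authors, and fastp, HISAT2 and HTSeq are named without versions or roles per the submitters' processing notes. No source used here gives the genome build, annotation, strand setting or handling of multiply mapped reads. A further 6 columns of per-sample values match no sample of the series and were not used. Of these, 3 are named pcDNA, an expression vector, and in the few rows viewed they held the same values as the control columns, but they were not compared further, so whether the controls are vector controls was not tested.

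The 10761 genes that reached 1 FPKM in 3 or more libraries were tested as log2(FPKM + 1) with limma 3.58.1 in R 4.3.3 (lmFit, eBayes with a variance trend, two-sided, Benjamini-Hochberg over all tested genes, threshold 0.05). Whole reads were recovered from the FPKM steps. The library totals were fitted first, from genes with low values. For each gene the smallest length that made its reads whole within 0.05 reads was then taken. Such a length was found for all 15958 genes above 0, which the choice of length largely ensures, so it is no check on the read numbers. No pair of replicates agreed within counting noise (chi-square per gene 7.69 to 30.7), so all 6 libraries were kept. Intervals are 95%. The fit was tested on simulated data with known changes, in which few genes changed, as many up as down, and the libraries had equal depth. These data differ from that setting, so the simulation gives no measure of error here.

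The members and lists were chosen with earlier results of these data known. All members are named. Of each other list the text names up to 4 called genes with the smallest adjusted p, taking identifiers first and otherwise the symbol the deposited table pairs with them (PCLAF, PAICS, FABP4 and CDKN2A). A gene that this rule would name is not reported here. The other replication list held 34 names, of which AND1, an alias of WDHD1, matched no row. SHMT1 was below the filter.

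Alternatives were median-of-ratios scaling, quantile normalization, a pseudocount of 0.1, no filter, a lower filter of 0.1 FPKM, no variance trend, library weights, the replicate number as a block with and without scaling, and leaving out each library. limma-voom on recovered reads was added after seeing the data.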

Additional observations from a re-analysis of the deposited data

How the results depend on the processing

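The members called lower numbered 20, and 13 of these 20 calls kept direction and side of the threshold under all 17 alternatives, whereas 11 of the 28 members not called did so. Of the 49 members, 5 lost the call after median-of-ratios scaling and none gained one. Leaving out single libraries gave 13 to 21 members called lower, 1 called higher, and members' medians of -0.257 to -0.174. The higher call was that of E2F2, which entered these fits only through its own higher group, so it is no support. Over all tested genes, 2476 were lower and 1392 higher. Lower calls were 1507 after median-of-ratios scaling, 1527 with limma-voom after that scaling, 3745 with the replicate number as a block, and 1387 to 2273 without single libraries, lowest without replicate 1 labelled YAP; higher calls were 2459 with the block after scaling and 1024 to 1333 without single libraries. Whether the replicate numbers pair the samples cannot be told from these values. Deviations from the group means correlated at -0.0178, 0.591 and 0.597 across genes for numbers 1, 2 and 3. Replicate 2 labelled YAP correlated at -0.62 with control replicate 3, and replicate 3 labelled YAP at -0.563 with control replicate 2. Replicate 1 labelled YAP correlated best with control replicate 3 (0.143). Deviations within a group of 3 sum to 0, so these correlations are not independent of each other. The block gave 27 members called lower, and 20 after scaling.

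Other replication genes called lower were 4 after median-of-ratios scaling and with limma-voom after scaling, 13 with the block, 12 with library weights and 3 to 11 without single libraries, and those called higher were 1 without the filter and 1 to 2 without single libraries. Other nucleotide and chromatin genes called lower were 13 with the block (7 to 10 without single libraries), and 2 were called higher with the block after scaling. Other G1/S genes called higher were 5 with median-of-ratios scaling, quantile normalization, limma-voom after scaling, library weights and both block fits (3 to 5 without single libraries), and those called lower were 5 to 10 without single libraries. Mitosis genes called lower were 6 after median-of-ratios scaling and with limma-voom after scaling, 17 with the block and 5 to 14 without single libraries.

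No member with a call changed sign. Among uncalled genes near 0, the sign turned after median-of-ratios scaling, with or without the block, for CDC7 (0.03), RPA2 (0.06) and POLA1 (0.06), with limma-voom after scaling for CDC7 (0.03), RPA2 (0.06) and POLA1 (0.08), with quantile normalization for RPA2 (0.05) and POLA1 (0.01), and with library weights for MCM2 (-0.03), CDC45 (-0.05), ORC6 (-0.01) and POLA1 (0.10). Ranges without single libraries crossed 0 for YAP1 (-0.03 to 0.05), MCM2 (-0.09 to 0.14), CDC45 (-0.07 to 0.08), CDC7 (-0.12 to 0.03), GINS3 (-0.20 to 0.04), ORC6 (-0.03 to 0.05), RPA2 (-0.09 to 0.03), POLA1 (-0.12 to 0.08), POLD1 (-0.02 to 0.14) and E2F1 (-0.23 to 0.04). The cause of these changes was not tested. TMM factors for limma-voom and the planned motif searches were not run. With 3 libraries per group no exact permutation p can fall below 0.1, and read numbers cover counting error only.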

Other observations

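The annotation in the deposited tables places 36 genes in the KEGG pathway of DNA replication, of which 25 are members described above, and this set was looked at after the data had been seen. Of the 35 that were tested, 12 fell and 1 rose, with a median log2 change of -0.19, and after median-of-ratios scaling 6 fell and 1 rose. The shares that fell, 34.3% and 17.1% after scaling, stood beside 23.0% and 14.0% of all tested genes. The 10 tested genes outside the member list gave 2 falls, POLE4 and the nuclease DNA2 (1.13 ± 0.194 FPKM in the libraries labelled YAP, 1.63 ± 0.293 FPKM in controls), and the rise of POLD4. SSBP1, the mitochondrial single-strand binding protein, had 5.62 ± 0.318 FPKM in the libraries labelled YAP and 5.61 ± 0.44 FPKM in controls (log2 change 0.00, limma adjusted p = 0.98). RNASEH1, a nuclease of RNA-DNA hybrids, had 14.1 ± 1.7 and 13.8 ± 1.39 FPKM (limma adjusted p = 0.88). The mitochondrial thymidine kinase gene TK2 rose, with 19.2 ± 0.614 FPKM in the libraries labelled YAP and 15.1 ± 0.479 FPKM in controls (log2 change 0.32, limma adjusted p = 0.0072), while TK1 did not pass. The difference between the kinases was not tested.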
